A study of Mus musculus with 31 samples.

Results

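The accessible promoters described here are the CpG-rich promoters of protein-coding genes that were open in parental NIH-3T3 cells. They are the ATAC-seq peaks that contain the transcription start site (TSS) of a protein-coding transcript whose surroundings, 500 bp to either side, had a GC content of at least 55% and a CpG observed/expected ratio of at least 0.75. The CpG ratio is the number of CpG dinucleotides divided by the number expected from the C and G content of the same stretch. A TSS with a coding TSS of another gene on the opposite strand within 1 kb was left out. By this rule 4076 of the 63456 peaks (6.42%) were members, and they held 14.5% of the accessible bases. They belonged to 4045 genes, of which 59 had more than 1 member peak and Ctbp2, a transcriptional corepressor, had 3. A single TSS position fulfilled the rule in 1947 members, 2 to 4 positions in 1905 and 5 or more in 224. Openness and base composition chose the members, so neither is a finding about them.

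The data come from 1 library of the parental line, an immortalised line of mouse embryonic fibroblasts without a TF transgene, of which 50000 cells were collected. In ATAC-seq the transposase Tn5 inserts sequencing adapters into DNA not wrapped in nucleosomes, and the fragments pile up over accessible chromatin. The methods describe doxycycline for NIH-3T3 cells in ATAC-seq in general, whereas the labels list none for the parental line. The other 30 samples of the series, which overexpress a TF or carry rtTA3G alone, were not analysed here. Of 17 fibroblast markers fixed for a check of the cell type, 13 had a peak over a coding TSS, among them Vim, Fn1, Col1a1 and Pdgfra, while Thy1, Lum, Dcn and Postn had none. Of 36 markers of epithelial, blood, endothelial, neuronal and pluripotent cells 2 had one, Krt14 and Cdh5. The share over all 21853 protein-coding genes was 47.5%. With a single library there is no replicate error, peaks of one library are not replicates, and no test was made.

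CpG-rich promoters, or CpG islands, drive most widely expressed genes of mammals as well as many developmental regulators. Their CpGs usually carry no DNA methylation, they mostly lack a TATA box, and transcription starts from a spread of positions. They are rich in binding sites for SP and KLF factors, for NFY, which recognises the CCAAT box, and for ETS factors, NRF1, YY1, CREB and ZBTB33. At inactive developmental genes the same kind of promoter is often held by Polycomb proteins.

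The reference sequence (GRCm38, the build of the peak list) of the 200 bases before the TSS is shown for members from the top, the middle and the bottom of the range of peak height and for members that carry motifs more frequent in members than in other open coding promoters. Sequences run 5′ to 3′ on the strand of the gene. Capitals mark matches, on either strand, to 1 of the motifs described below. The members with the highest summits were Sfi1, Dmtf1 and Ptp4a1, Bmi1 stood at the median, and Map3k1 at the lowest value. Esyt2 and Ing5 had the highest summits among members with an NRF1 and a YY1 match, and Dmtf1 among those with an SP/KLF match. For Ing5 the 30 bases around its YY1 match, which lies downstream of the TSS, are given as well.
Sfi1, chr11:3193408-3193607, minus strand: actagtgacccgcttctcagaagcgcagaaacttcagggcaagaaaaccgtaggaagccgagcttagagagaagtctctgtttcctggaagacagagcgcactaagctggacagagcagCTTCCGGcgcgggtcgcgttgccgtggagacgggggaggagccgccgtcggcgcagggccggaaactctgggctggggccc
Dmtf1, chr5:9161717-9161916, minus strand: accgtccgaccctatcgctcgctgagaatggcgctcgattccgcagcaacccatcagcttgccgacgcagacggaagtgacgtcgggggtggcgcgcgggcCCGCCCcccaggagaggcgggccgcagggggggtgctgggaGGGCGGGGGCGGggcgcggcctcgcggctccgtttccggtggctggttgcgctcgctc
Ptp4a1, chr1:30949771-30949970, minus strand: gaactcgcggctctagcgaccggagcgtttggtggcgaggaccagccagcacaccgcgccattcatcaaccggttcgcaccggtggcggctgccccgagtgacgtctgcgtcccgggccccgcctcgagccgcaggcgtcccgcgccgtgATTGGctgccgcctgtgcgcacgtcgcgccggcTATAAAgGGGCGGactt
Bmi1, chr2:18676818-18677017, plus strand: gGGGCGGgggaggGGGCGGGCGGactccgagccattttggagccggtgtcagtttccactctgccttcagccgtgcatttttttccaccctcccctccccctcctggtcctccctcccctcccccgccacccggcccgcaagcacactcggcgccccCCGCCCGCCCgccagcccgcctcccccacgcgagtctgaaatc
Map3k1, chr13:111808316-111808515, minus strand: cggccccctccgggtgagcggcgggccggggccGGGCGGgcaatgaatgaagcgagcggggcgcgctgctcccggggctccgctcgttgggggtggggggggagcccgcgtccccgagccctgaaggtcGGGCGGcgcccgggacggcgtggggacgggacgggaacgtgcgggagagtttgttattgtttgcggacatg
Esyt2, chr12:116280996-116281195, plus strand: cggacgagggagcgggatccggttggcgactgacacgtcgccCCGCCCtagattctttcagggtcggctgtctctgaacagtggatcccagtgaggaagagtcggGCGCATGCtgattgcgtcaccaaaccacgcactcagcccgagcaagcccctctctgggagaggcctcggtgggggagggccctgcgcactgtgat
Ing5, chr1:93803765-93803964, plus strand: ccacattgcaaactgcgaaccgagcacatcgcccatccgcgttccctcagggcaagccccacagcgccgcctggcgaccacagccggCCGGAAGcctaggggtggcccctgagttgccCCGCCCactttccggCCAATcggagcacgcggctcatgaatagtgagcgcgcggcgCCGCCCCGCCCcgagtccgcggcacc
Ing5 YY1 site, chr1:93803985-93804014, plus strand: agcgtggccgaggcgAAGATGGCgactgcc

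The Sfi1 stretch held 1 ETS match whose first base lay at -81, counting the TSS as 0 and upstream as negative. Dmtf1 had SP/KLF matches at -99, -58 and -52, the last 2 adjoining each other. Ptp4a1 had an NFY match at -50, a TATAAA at -17 and an SP/KLF match at -10. Bmi1 had 5 SP/KLF matches between -199 and -39, among them overlapping pairs at -187 and -183 and at -43 and -39. Map3k1, at the bottom of the range, also had 2 in its reference sequence, at -167 and -71. Its narrow peak (chr13:111808180-111808317) hardly reached upstream of the TSS, so both matches lay outside the peak. The NRF1 match of Esyt2 began at -95. Ing5 combined an ETS match at -113, an NFY match at -67 and 3 SP/KLF matches before the TSS with the YY1 match at 35 behind it.

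The height of a peak is given as its summit pileup, the number of sequenced fragments over the summit base. This number was solved from the deposited fold enrichment and −log10 p and came out whole for every member. A promoter open in some of the cells and one less accessible in all of them cannot be told apart by this measure. The members had a median of 70 fragments, with quartiles of 48 and 96 and a range from 12 to 499. Of the members 98.9% had at least 20 fragments. Members with 100 or more numbered 927 (22.7%), and members with 150 or more numbered 165 (4.05%). The lowest summit in the whole list had 10 fragments, against an expected background of 2.81, so the weakest members lay just above what the peak caller could call.

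Open coding promoters that missed at least 1 of the composition thresholds, 4723 peaks, had a median of 57 fragments with quartiles of 37 and 82. The ratio of the medians was 1.23, and the quartiles overlapped widely. Among these promoters the 811 with a CpG ratio under 0.4 had a median of 41 fragments, and 47191 peaks more than 1 kb from any TSS had a median of 25. Members were therefore 1.71 times as high at the median as low-CpG promoters and 2.8 times as high as distal peaks. In fold enrichment, the summit over the local expected pileup, the difference was smaller. The median was 10.1 in members and 9.36 in the other open coding promoters, a ratio of 1.08. The expected pileup was also higher in members (6.04 against 5.15 fragments). How far the fragments of a wide peak themselves raise this value was not tested.

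Width differed more between these groups than height. The median member was 931 bp wide, with quartiles of 732 and 1154 bp, against 685 bp at the other open coding promoters, 490 bp at those with a CpG ratio under 0.4 and 278 bp at distal peaks, and its ratio to the other open coding promoters was 1.36. Of the members 40.8% reached 1000 bp, compared with 14.9% of the other open coding promoters and 1.4% of distal peaks. At 1500 bp the shares were 6.67%, 1.88% and 0.163%.

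**Figure D1:**
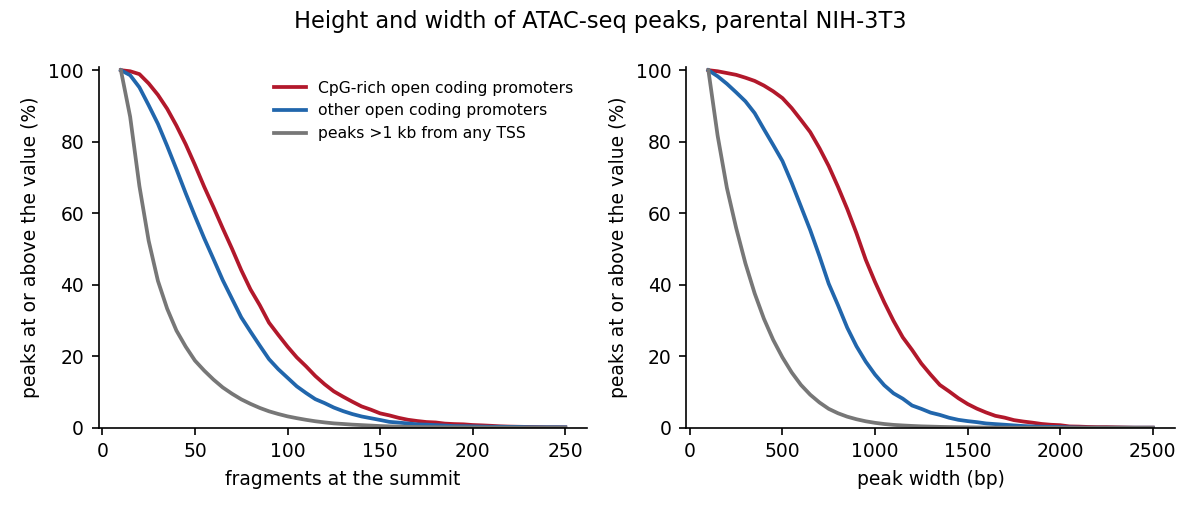
Share of peaks at or above a given number of fragments at the summit (left) and a given width in bp (right), for CpG-rich open coding promoters, other open coding promoters and peaks more than 1 kb from any TSS, in 1 library of parental NIH-3T3. The curve of the CpG-rich promoters lies to the right in each panel, with medians of 70 fragments and 931 bp against 57 fragments and 685 bp at the other promoters.

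Within the members, height hardly followed composition while width did. In 4 equal-sized groups ordered by CpG ratio the median pileup was 69, 69, 71 and 68 fragments. Ordered by GC content it was 71, 69, 72 and 65. The median width in contrast was 835, 905, 987 and 1061 bp from the lowest to the highest GC group, and 883, 913, 956 and 988 bp from the lowest to the highest CpG ratio. Fold enrichment went the other way, from 11.2 in the lowest GC group to 8.91 in the highest. GC content also affects PCR amplification and sequencing, and its part in these values was not tested. Members with 1 TSS position had a median pileup of 66 fragments and a width of 890 bp, and those with 5 or more had 72.5 fragments and 1010.5 bp. Width and height were linked: the narrowest group had a median of 45 fragments and the widest 83. The ends of a peak are set where the pileup falls below the threshold of the caller. The part of this in the link between width and height was not tested.

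The highest summit lay at Sfi1, which encodes a centrin-binding protein of the centrosome (chr11:3192850-3193905, minus strand), with 499 fragments and an exact 95% Poisson interval of 456 to 545. Its expected pileup was high as well, at 89.9 fragments the highest among members, and its fold enrichment was only 5.5. Dmtf1, a cyclin D-binding MYB-like transcription factor (chr5:9160975-9162248), followed with 328 fragments (293 to 365) and a fold enrichment of 15. Ptp4a1, a protein tyrosine phosphatase (chr1:30948898-30950513), had 257 (227 to 290), Ifrd1, a transcriptional coregulator, 255 (225 to 288) and Pcmtd1, a methyltransferase domain protein, 254 (224 to 287). The intervals of these 3 overlap, so their order is not resolved. Vcpip1, a deubiquitinase, had 246 fragments (216 to 279), Alad, the second enzyme of haem synthesis, 239 (210 to 271) and Cldn12, a claudin, 237 (208 to 269). At Ifrd1 and Vcpip1 a gene not annotated as protein coding started on the opposite strand 175 and 99 bp away.

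The members named for their width were less high. Ppp2r3d, a regulatory subunit of protein phosphatase 2A, had a peak of 2776 bp with 105 fragments (chr9:124422528-124425303). The glucocorticoid receptor gene Nr3c1 followed with 2558 bp and 66 fragments (chr18:39489401-39491958), the zinc finger homeobox gene Tshz3 with 2350 bp and 69 fragments (chr7:36696124-36698473) and Cobll1, a cordon-bleu-like protein, with 2346 bp and 122 fragments (chr2:65237028-65239373). GC content at these TSSs was between 68.1% and 76.9%.

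At the lower end Map3k1, a kinase upstream of JNK, Ttpa, the alpha-tocopherol transfer protein, Mul1, a mitochondrial ubiquitin ligase, and Thoc2, an mRNA export factor, each had 12 fragments (6.2 to 21). Zbtb7c, a BTB zinc finger gene, had 13 (6.92 to 22.2). These peaks were between 138 and 281 bp wide, and their counting intervals reach down to the height at which peaks are no longer called. Bmi1, a Polycomb subunit (chr2:18676579-18677470), Marf1, a regulator of RNA stability in oocytes (chr16:14159143-14159982), and the immediate early gene Fosb (chr7:19310029-19310478) represented the median with 70 fragments each (54.6 to 88.4). Their widths were 892, 840 and 450 bp.

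Across all coding genes, accessibility varied with the composition of the promoter. Of 21853 protein-coding genes 10375 (47.5%) had a peak over a coding TSS. Of the 5298 genes with a TSS that fulfilled the rule 4045 (76.3%) had a peak over such a TSS, compared with 6245 of the 16555 other genes (37.7%) with a peak over any coding TSS. Without TSSs that face a coding TSS of another gene on the opposite strand, which the rule leaves out, the latter share was 28.9% (4316 of 14949). The shares by composition that follow use 1 TSS per gene and again leave out genes whose TSS faces such a coding TSS. The open share was 1.7% below a CpG ratio of 0.15, 17.1% between 0.3 and 0.45, 64.9% between 0.6 and 0.75 and 79.4% from 0.9 upwards. The thresholds mark no step. Among genes past the GC threshold, 70.7% were open just outside the CpG threshold, between 0.7 and 0.75, and 73.2% just inside, up to 0.8. Among genes past the CpG threshold, 88.3% were open between 53 and 55% GC and 89.1% between 55 and 57%.

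Within the genes that fulfilled the rule, GC content and CpG ratio ran in opposite directions. The open share was 86.9% at a GC content of 55 to 60%, 80.9% at 60 to 65%, 72.9% at 65 to 70% and 61.9% above, while it was 73.9%, 78.5% and 79.5% with increasing CpG ratio. The 1253 closed genes accordingly had a median GC content of 66.9%, against 64.2% in the members, and a median CpG ratio of 0.836 against 0.856. Closed means only that no peak was called over a qualifying TSS. Of these genes 214 (17.1%) had a peak within 1 kb of such a TSS and 85 a peak over another coding TSS, whereas 666 (53.2%) had no peak within 10 kb. Whether fewer uniquely mapped fragments at very GC-rich sequence contribute was not tested.

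**Figure D2:**
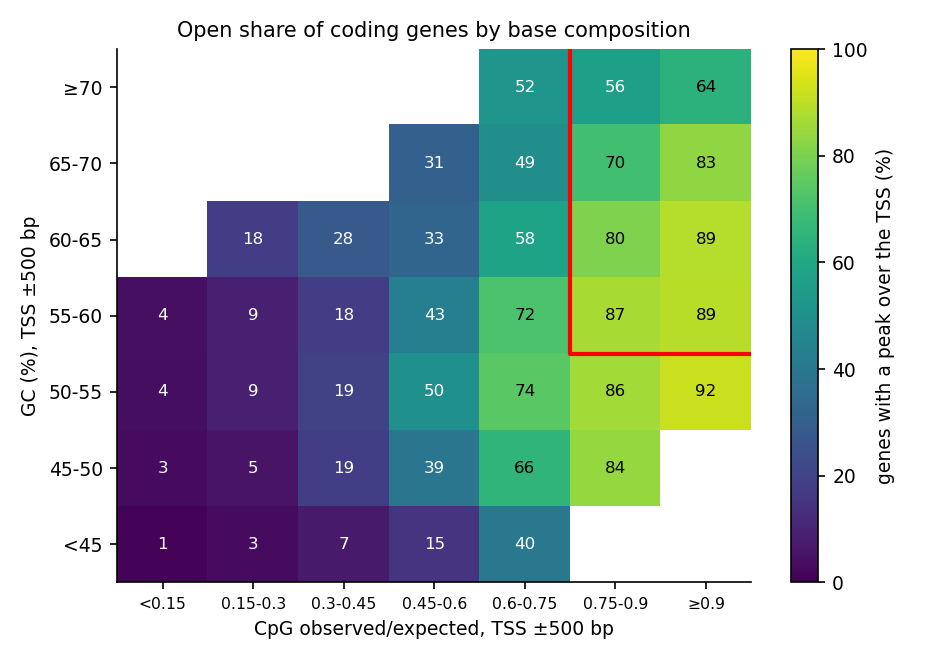
Share of protein-coding genes with a peak over the TSS, by CpG observed/expected (x axis) and GC content in percent (y axis) of the 500 bp to either side, with 1 TSS per gene and fields of at least 20 genes only. Genes whose TSS faces a coding TSS of another gene on the opposite strand within 1 kb are left out. The red line encloses the compositions that fulfil the rule. Openness is lowest at the lower left, and within the enclosed fields it is lower towards high GC and higher towards a high CpG ratio.

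Genes of basic cell functions were open in nearly every case. In 9 lists of such genes 56 had a qualifying TSS and 54 of them (96.4%) were members, against 76.3% of all qualifying genes. Their median pileup was 69.5 fragments, against 70 over all members. Of the remaining genes of these lists, whose TSSs missed the thresholds or faced another coding gene, 85 were open and 4 were not.

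Among common reference genes 6 of 6 were members, from the salvage enzyme gene Hprt on the X chromosome with 40 fragments (28.6 to 54.5) to the adaptor protein gene Ywhaz with 131 (110 to 155). Actb, cytoplasmic actin, had 94 and Ppia, cyclophilin A, 105. All 4 qualifying subunits of RNA polymerase II were members with low and similar summits, from 46 fragments at Polr2c to 56 at Polr2a, the gene of the largest subunit. All 4 were below the member median of 70, which the interval of Polr2a (42.3 to 72.7) includes, and the intervals of the 4 overlap. The 7 other open subunits, which are not members, had a median of 74 fragments, so low summits were no trait of the whole complex. Of the Mediator, the complex that links transcription factors to the polymerase, 5 of 6 were members, from 40 fragments at Med14 and Med25 to 88 at Med28, and Med13 had no peak. The chaperonin CCT, which folds actin and tubulin, had 3 of 3, from 85 at Cct4 to 108 at Cct2. All 3 lay above the member median, which the interval of Cct4 (67.9 to 105) includes.

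The initiation factors eIF2, eIF2B and eIF3, which bring the initiator tRNA and the ribosome to the mRNA, had 11 of 11 members, from 44 fragments at Eif2s3x to 87 at Eif3j1 and Eif3m. The RNA exosome, which degrades RNA from the 3′ end, had 3 of 3, from 28 at Exosc10 to 72 at Exosc6. The anaphase-promoting complex, the ubiquitin ligase that ends mitosis, had 4 of 4, from 35 at Anapc7 to 138 (116 to 163) at Anapc4. Nucleoporins had 12 of 13, from 23 (14.6 to 34.5) at Nup133 to 132 (110 to 157) at Nup54, and Nup210 had no peak. The Poisson intervals of these extremes are far apart, so subunits of one complex differed beyond counting error. Cyclins and cyclin-dependent kinases had 6 of 6, from 78 at Cdk6 to 208 (181 to 238) at Ccna2, the cyclin of S phase and G2. All 6 exceeded the member median, and the 5 other than Ccna2 lay between 78 and 89. The intervals of Cdk6 (61.7 to 97.3), Ccnb1 (63.4 to 99.6) and Ccne2 (68.8 to 106) include the member median, so these are not above it beyond counting error. Among the open genes of this list that are not members, Cdk1, Cdk2 and Cdk4 had 108, 88 and 95 fragments. Ccnd2 and Ccnd1 had 63 and 30.

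**Figure D3:**
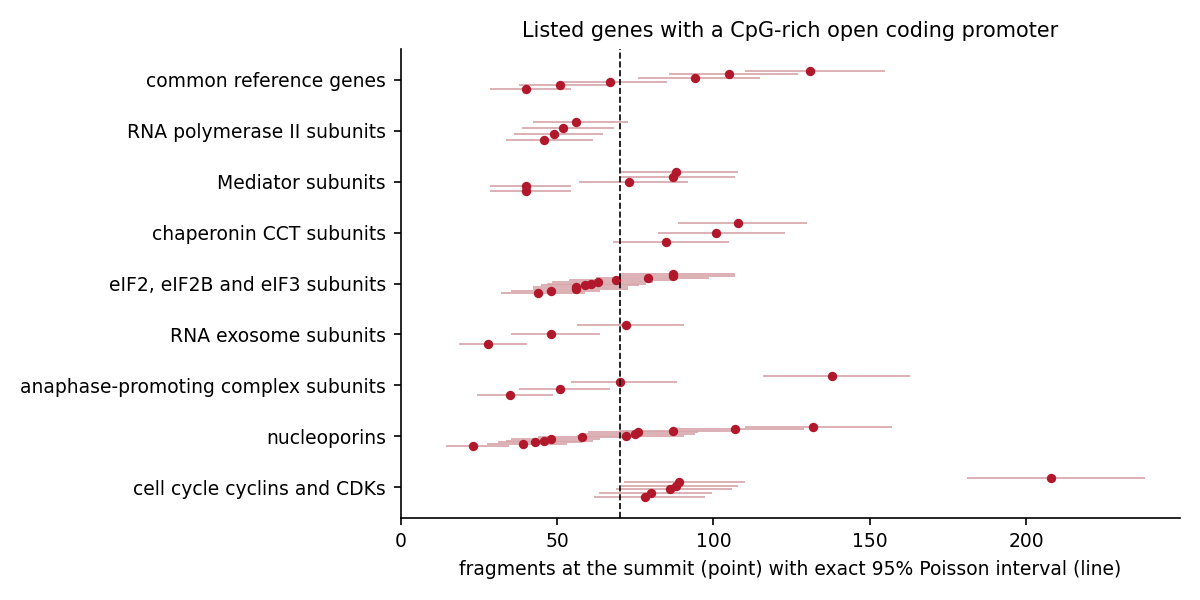
Fragments at the summit for each listed gene with a CpG-rich open coding promoter, 1 point per gene with its exact 95% Poisson interval, which covers counting error in 1 library only. The dashed line is the median of all members, 70 fragments. The members among RNA polymerase II subunits lie between 46 and 56 and those among cyclins and cyclin-dependent kinases between 78 and 208. Open genes of the lists that are not members are not shown.

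Developmental regulators of other lineages with the same kind of promoter were mostly closed. Of 12 PAX, LIM homeobox, GATA, NKX and proneural genes with a qualifying TSS, 11 had no peak over it and Lhx6 was the only member, with 65 fragments (50.2 to 82.8). Gata2 had a peak over another of its TSSs. Of the markers of other cell types, the 5 with a qualifying TSS, Epcam, Grhl2, Tal1, Rbfox3 and Sox2, were closed. The fibroblast markers Twist1, a bHLH factor of mesenchyme, with 94 fragments (76 to 115), and Col5a1, a fibrillar collagen, with 48 (35.4 to 63.6), were members.

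Families chosen by gene symbol, after results of these data were known, spanned the whole range. None of 29 Kcn potassium channel genes with a qualifying TSS had a peak over it, and 1 of 16 Wnt and Fgf ligand genes did. Of 15 Hox genes 3 were open (20%), of 10 Sox genes 2, of 15 Nkx, Lhx, Pax and Tbx genes 3 (20%) and of 25 Fox genes 14 (56%). In contrast 56 of 61 Ube2 and Usp ubiquitin enzymes (91.8%), 26 of 29 Rab GTPases (89.7%), 31 of 35 Ppp phosphatase subunits (88.6%) and 23 of 26 F-box proteins (88.5%) were open. Zfp zinc finger proteins (63 of 81, 77.8%) and Slc solute carriers (56 of 77, 72.7%) were close to the share of 76.3% over all qualifying genes. Among families with an open share of at least 70% the median pileup ranged from 43 fragments for Kif kinesins (11 of 15 open) to 80 for Dnaj chaperones (17 of 22).

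The summits of the members mostly lay slightly upstream of the TSS, while the peaks reached further downstream than upstream. The summit lay at a median of -45 bp, with quartiles of -118 and 11, and upstream in 69.7% of the members. It was within 100 bp of the TSS in 62.9% and within 250 bp in 88.3%. At the other open coding promoters the summit lay closer, at a median of -22 bp, and within 100 bp in 74.4%. The TSS nearest to the summit stood for the peak, so short distances are partly set by this choice. In members only TSSs that fulfil the rule could be chosen. At the other promoters any coding TSS not facing one of another gene could be. The part of this in the difference between the groups was not tested. Member peaks reached 397 bp upstream and 488 bp downstream of the TSS at the median, compared with 290 and 356 bp at the other promoters, and 59.6% of them extended further downstream than upstream. This share was 59.4% at the other promoters as a whole and 41.8% at those with a CpG ratio under 0.4, where the downstream reach was 195 bp. Of the members 3177 (77.9%) ended beyond the first exon, whose median length was 237 bp, against 74.0% of the other promoters. Of the 4046 with an annotated start codon 2268 (56.1%) covered it, against 51.2%.

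**Figure D4:**
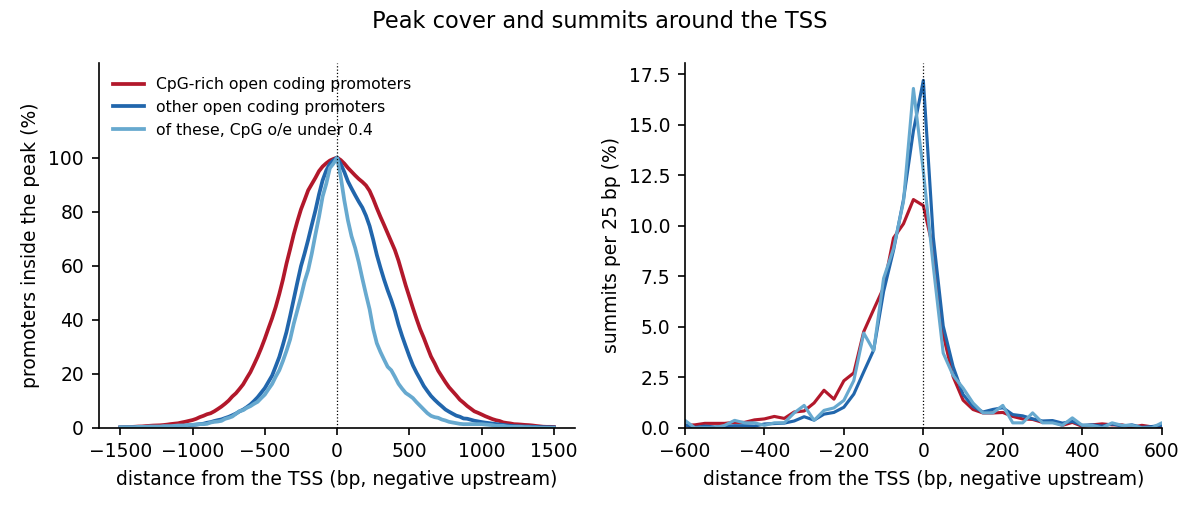
Left, share of promoters inside their peak at each distance from the TSS in bp. Right, share of summits per 25 bp. Lines stand for CpG-rich open coding promoters, other open coding promoters and, of these, those with a CpG ratio under 0.4. The CpG-rich promoters are covered over a wider stretch on either side, and their summits are spread further upstream.

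The rule did not use noncoding genes, here all genes not annotated as protein coding. A TSS of such a gene lay within 1 kb on the opposite strand in 761 members (18.7%), at a median distance of 222 bp. The share was 10.7% at the other open coding promoters, 5.06% at those with a CpG ratio under 0.4 and 15.4% at closed genes with a qualifying TSS. The median width was 983 bp in member peaks with such a TSS and 917 bp in the others, and the former reached further upstream, 447 bp against 388 bp. Their height differed less, 74 against 69 fragments. Member peaks had close neighbours about as often as other promoters, with another peak within 1 kb in 21.4% against 18.4%.

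Motif matches were counted in the 300 bases from 250 bp before to 50 bp after the TSS, on either strand, for 12 motifs of which none contains another. A match is a description of the sequence and was not tested for binding. GGGCGG, the core of SP/KLF sites, was present in 80.9% of the members, 57.7% of the other open coding promoters, 25.5% of those with a CpG ratio under 0.4 and 43.9% of all 21853 coding promoters. Closed genes with a qualifying TSS had it in 79.1%, so open and closed genes of this composition differed little. CCGGAAG, an ETS site, was found in 18.9% of the members, 17.9% of the other open coding promoters and 6.07% of the closed genes. Of all coding promoters 11% had it, so members and other open coding promoters differed little. The NRF1 site GCATGCGC was found in 7.61% of the members and 2.39% of the closed genes (3.70% of all). The YY1 site AAGATGGC had 5.72% and 1.68% (3.03% of all) and the cAMP response element TGACGTCA 4.05% and 1.92% (2.43% of all). In the other open coding promoters the shares of NRF1, YY1 and the cAMP response element were 4.47%, 4.34% and 3.22%. The ZBTB33 site TCTCGCGA was found in 3.70% of the members and 0.638% of the closed genes (1.36% of all). Its share in the other open coding promoters was 0.974%. The E-box CACGTG, bound by MYC and USF factors, was found in 12.2% of the members and 9.46% of the other open coding promoters. Closed genes had it in 9.42% and all coding promoters in 7.71%. The letters of the SP/KLF, ETS, NRF1, cAMP response element, ZBTB33 and E-box motifs hold CpGs, which the rule selects for. Their excess over promoters of other composition is therefore no finding apart from the rule.

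The following motifs, which hold no CpG, were less frequent in members than in the other open coding promoters. The part of the choice of GC-rich sequence in this was not tested. TGACTCA, the AP-1 site, was found in 2.38% of the members, 6.56% of the other open coding promoters, 17.8% of those with a CpG ratio under 0.4 and 4.46% of all. TATAAA was found in 4.44%, 7.52%, 11% and 12.6%. GTTGCCA, an RFX site, had 3.14% in members, 3.92% in the other open coding promoters and 4.24% of all. CCATATTAG, an SRF site, was present in 2 members (0.0491%) and 5 of the other open coding promoters (0.106%). The SRF difference thus rests on very few promoters. Counting SP/KLF, NFY, ETS, NRF1, YY1 and the cAMP response element together, 284 members (6.97%) had none of them, 1780 had matches to 1, 1607 to 2 and 372 to 3.

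Since closed genes were richer in GC, open and closed genes were also compared within GC classes, each gene at the TSS that starts most of its transcripts. ETS matches were found in 27.6% of 1037 open and 8.28% of 157 closed genes at 55 to 60% GC, in 20.1% and 5.57% at 60 to 65%, in 13.9% and 7.46% at 65 to 70%, and in 9.0% and 4.11% above. NRF1 matches were likewise more frequent in open genes in each of the 4 classes, with ratios from 1.97 to 3.84. ZBTB33 matches were found in 45 of the 1037 open genes and in none of the 157 closed genes of the lowest class, and were at least 2.65 times as frequent in open genes in the others. For YY1 the ratio lay between 1.23 and 11.9, the highest resting on 2 closed genes. SP/KLF matches differed little in any class, with ratios between 1.03 and 1.15, and the ratio for TATAAA was under 1 in the lower 3 classes and 1.31 in the highest.

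CCAAT, the NFY site, was less frequent in members (36.0%) than in the other open coding promoters (43.0%) and about as frequent as in all coding promoters (38.9%). Closed genes with a qualifying TSS had it in 26.3%, and within the 4 GC classes the ratio of open to closed genes lay between 1.14 and 1.54. Within the members its share went with the height of the peak. In 4 equal-sized groups of members from the lowest to the highest summits it was found in 24.7%, 31.7%, 38.0% and 49.8%. Members with a match had a median of 80 fragments and those without 64. With 1 match the median was 71 fragments (863 members), with 2 it was 90 (395 members) and with 3 or more 98 (211 members). Width did not follow, at 922 bp with and 935 bp without a match.

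The relation between CCAAT and height held within each of 4 groups of GC content. In the lowest GC group its share went from 31.0% at the lowest to 51.4% at the highest summits, and in the highest GC group from 16.9% to 45.5%. Ordered instead by fold enrichment, which is relative to the expected pileup, the shares were 25%, 32.7%, 38.7% and 47.8%. In the same groups by pileup the share was 80.8%, 79.8%, 80% and 83.0% for SP/KLF matches and 17.5%, 18.5%, 20.8% and 18.6% for ETS matches. By fold enrichment the shares were 82.9%, 80.9%, 82.1% and 77.6% for SP/KLF, 14.4%, 17.4%, 19% and 24.6% for ETS and 1.67%, 3.04%, 5.1% and 5.0% for ZBTB33. ETS and ZBTB33 shares were thus higher at the upper end of this measure as well. Fold enrichment was lower at high GC content, and members with an ETS match had a median GC content of 61.9% against 64.7%. The shares by fold enrichment, also those of CCAAT, were not split by GC content, and its part in them was not tested. The median was 70 fragments with and 68 without an SP/KLF match, and 71 and 69 for ETS. Members with a ZBTB33 match had a median of 78 fragments against 69, and a width of 1011 bp against 926 bp. AP-1 matches, though rare, went with 83 fragments against 69, and their share was 1.77%, 1.96%, 2.45% and 3.34% from the lowest to the highest summits.

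Most of the motifs were concentrated near the TSS, at places that some of them shared. GGGCGG was most frequent from -60 to -41, where 21.6% of the members had a match, and had a second, lower maximum downstream. CCAAT was most frequent from -80 to -61 with 7.09% and was rare downstream. NRF1 and cAMP response element matches were most frequent from -40 to -21, with 1.05% and 0.687%, and ZBTB33 from -60 to -41 with 0.711%, which was 26.4 times the mean of the outermost bins. ETS matches were most frequent right at the TSS, from 0 to 19, with 3.58%, and YY1 downstream of it, from 20 to 39, with 1.89%, as in Ing5 above. The AP-1 motif had no maximum near the TSS, while TATAAA had a narrow local maximum from -40 to -21, the usual place of a TATA box. There 32 members (0.785%) had a match, against 5 and 8 in the bins on either side, and 45 members had one in the most frequent bin, far upstream at -460 to -441.

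**Figure D5:**
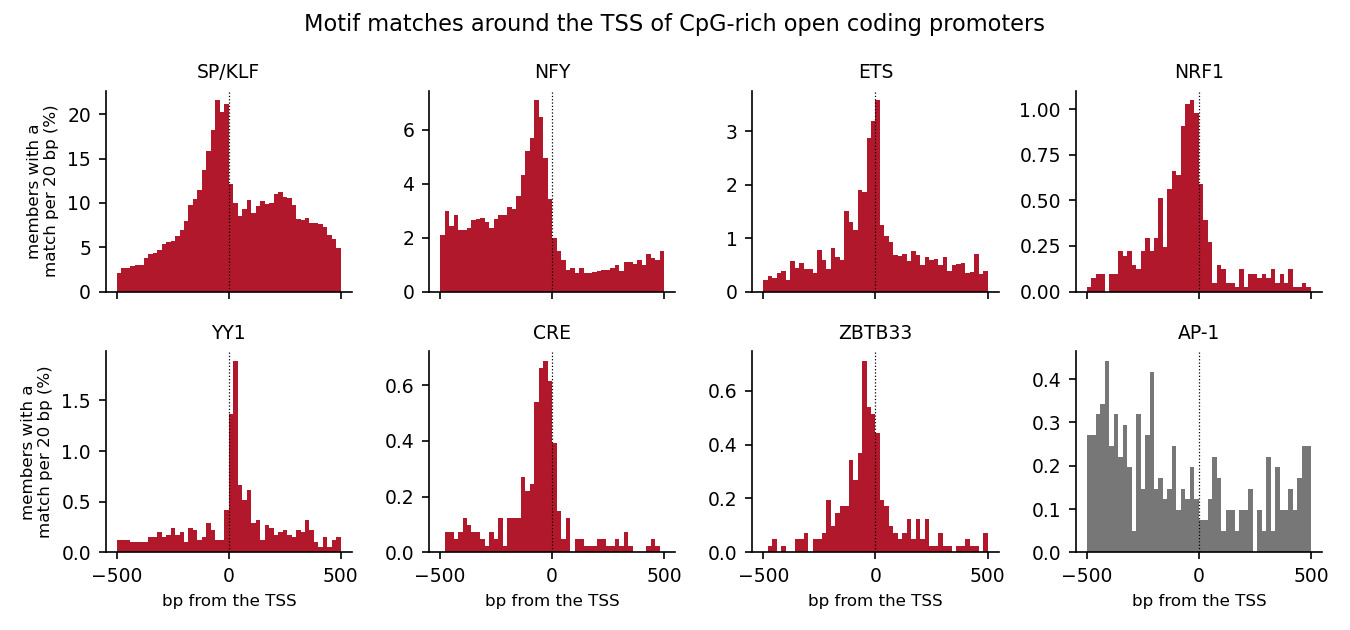
Share of the 4076 members with a match per 20 bp against the distance of its first base from the TSS in bp, 1 panel per motif, each with its own vertical scale. SP/KLF, NFY, NRF1, CRE (cAMP response element) and ZBTB33 matches are most frequent upstream, ETS matches at the TSS and YY1 matches just downstream, while AP-1 matches have no maximum there.

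The chromosomes differed in the share of open genes and more so in the height of the members. Among qualifying genes the open share ranged from 65.6% on chromosome 12 (143 of 218) to 81.9% on chromosomes 8 (227 of 277) and 16 (145 of 177), with 71.7% on the X chromosome and the only qualifying gene of the Y chromosome closed. The median pileup of the members was 104 fragments on chromosome 1, compared with 55 on chromosome 18 and 47.5 on the X chromosome, the lowest. Of the 100 members with the highest summits 32 lay on chromosome 1, which held 6.23% of the members, and none on chromosomes 7, 13, 18 or X. Within chromosome 1 the first 20 Mb had a median of 144 fragments over 17 members, including Pcmtd1 and Vcpip1. Fold enrichment differed less, with 11.4 on chromosome 1, 10.3 on the X chromosome and 8.68 on chromosome 11, the lowest, and the expected pileup moved along, from 8.1 on chromosome 1 to 3.43 on the X chromosome. Distal peaks showed little of this difference, with medians between 22 and 27 on these chromosomes and the other autosomes, where many lie close to the calling limit. The copy number of the chromosomes in this line was not tested, and heights of members on different chromosomes cannot be told apart from it.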

How the data were processed

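The peak list of 1 ATAC-seq library (parental NIH-3T3) was used, and the other 30 samples were not analysed here. Per the submitters' processing notes, STAR 2.5.3a, Picard and MACS2 2.1.1.20160309 were used with mm10. The authors aligned paired-end reads, kept uniquely mapped reads, removed duplicates and called peaks on whole fragments. No shift for the Tn5 cut is described. For each peak the authors deposited a fold enrichment, a ratio of the summit pileup to the expected pileup with 1 added to each. They also deposited a −log10 p and a −log10 q of a Poisson test at the summit, and a score derived from the −log10 q. The read depth is not given in the list. Both pileups at a summit follow from its fold enrichment and −log10 p together, which gave a whole number (tolerance 0.02) for all but 1 peak, a distal one left out of pileup statistics. The solution was tested on simulated data.

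Coordinates are 1-based on mm10 (GRCm38), with the reference FASTA and the GENCODE M21 annotation of the same build. The qualifying TSS nearest to the summit stood for a member. Named were the 8 highest, 5 widest, 5 lowest and 3 median members by the rule, and of each list the highest and lowest member and, where at most 5, the closed genes. A member and a sequence named by this rule are not reported here. The members and lists were chosen with earlier results of these data known. The division at a CpG ratio of 0.4, the families by gene symbol and the comparisons within GC groups were chosen after values were seen. One of the 8 CCT genes was not found in the annotation. Soft-masked bases made up no more than 50% of any printed member's peak, and no sequence of chromosome 18 is shown. Intervals for single summits are exact 95% Poisson intervals and cover counting error only, since fragments carry no molecular identifiers. Calculations used SciPy 1.17.1, pysam 0.24.0 and pandas 2.3.3 in Python 3.11.15, and plots matplotlib 3.10.9.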

Additional observations from a re-analysis of the deposited data

How the results depend on the processing

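Of 68 values recomputed under alternatives, 46 stayed within a fixed range around the value above and 22 moved outside it. For the number of members the range was a factor of 1.5. For shares and medians it was a 95% interval over the genes or peaks of this library, and for ratios the limits of both medians were combined. Genes and peaks are not replicates, so these ranges are only a yardstick for the size of a shift. In every alternative members stayed higher and wider at the median than the other open coding promoters, and their median summit stayed upstream. A minimum fold enrichment of 5 gave an open share of 72.2%, a pileup ratio of 1.16 and a width ratio of 1.32. A CpG ratio of 0.6 or more in place of 0.75 gave an open share of 72.2%, a pileup ratio of 1.28, a width ratio of 1.45, a median summit distance of -37 bp, GGGCGG in 79.1%, CCAAT in 38.1% and an opposite-strand noncoding TSS in 16.9%. A GC content of 50% or more gave GGGCGG in 78.6%. Composition over 250 bp to either side gave a summit distance of -37 bp, GGGCGG in 78.2% and a noncoding TSS in 16.7%. Leaving out no TSS for an opposite-strand coding TSS gave an open share of 79.7%, a summit distance of -40 bp and a noncoding TSS in 16.4%. A summit within 250 bp of the TSS in place of a TSS inside the peak gave an open share of 69.2% and a summit distance of -39 bp. A shorter window centred on the summit held GGGCGG in 49.1% and CCAAT in 22.3% of the members. Fold enrichment in place of the pileup gave a ratio of 1.08. The cause of the other shifts was not tested. The number of members ranged from 3704 with the summit rule to 5868 with a CpG ratio of 0.6.

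No paired analysis was possible because the values come from a single library without replicates. Depth limits the weakest members, whose 12 fragments lie near the lowest called summit of 10, and lower summits are not in the list.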
